A study of Mus musculus with 30 samples.

Results

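The miR-290 to miR-295 cluster of the mouse was represented on the miRNA arrays by 18 mature miRNAs of 1908 mouse mature miRNAs, chosen by name, as every mature probe set called miR-290, miR-291, miR-292, miR-293, miR-294 or miR-295 with any letter or arm. Another 10 probe sets of 1255 carried 8 of the cluster's hairpin precursors. RNA of dissected mouse heart tissue at embryonic day 9.5, from embryos with 19 to 21 somite pairs, had been measured on 16 mRNA arrays and 14 miRNA arrays. Each array held a pool of tissue from at least 5 litters. In mutants, Mef2c-AHF-Cre/+ and Dgcr8 f/f, a Cre recombinase driven by the anterior heart field enhancer of Mef2c deletes floxed Dgcr8 in that field and its descendants, while other cells of the dissected tissue keep the gene. Embryos called wild-type were Dgcr8 f/+, with 1 floxed allele and no Cre, so an effect of Cre itself and the loss of Dgcr8 cannot be told apart. Tissue was either the anterior second heart field (aSHF), with 4 mutant and 4 wild-type miRNA arrays, or the outflow tract together with the right ventricle (OFT-RV), with 3 mutant and 3 wild-type miRNA arrays. Each of the mRNA groups had 4 arrays.

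DGCR8 is the RNA-binding partner of Drosha, and together they cut hairpins out of primary miRNA transcripts before Dicer releases the mature strands. The miR-290 to miR-295 cluster is a polycistron that is best known from mouse embryonic stem cells and the early embryo, where its AAGUGC-type seeds, shared with the miR-302 cluster, promote the cell cycle and hold back differentiation signals. A seed, bases 2 to 8 of a mature miRNA, is the stretch that mainly pairs with target mRNAs. The questions here were which mature strands of the cluster were measurable in these tissues and whether they were lower in pools of Dgcr8 mutants.

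The cluster lies within 2216 bases at chr7:3218626-3220841 (GRCm38.p6, RefSeq), a span that RefSeq genes Nlrp12 and D7Ertd143e overlap. Sequences of 17 of the 18 members were matched in RefSeq at the location the authors' tables give. Of the 18, 14 lie on the plus strand, and miR-290b-5p, miR-290b-3p, miR-292b-5p and miR-292b-3p on the minus strand. Among the 17 sequences there were 11 different seeds. The first sequences shown are those of miR-290a-5p, miR-292-5p and miR-293-3p, 3 of the 4 members that were above background on every array, plus miR-293-5p, which has the same seed as the first pair. The fourth such member, miR-292-3p, is named only. The seed is in capitals.
miR-290a-5p: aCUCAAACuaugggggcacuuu
miR-292-5p: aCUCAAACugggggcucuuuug
miR-293-5p: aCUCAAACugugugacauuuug
miR-293-3p: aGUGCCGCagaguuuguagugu
The next set holds 5 members with the AAGUGC-type seeds for which the cluster is known, to which miR-292-3p is also known to belong, with the seed in capitals, followed by 3 mature miRNAs outside the cluster that share a seed of 7 bases with one of them.
miR-291a-3p: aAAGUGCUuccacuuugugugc
miR-294-3p: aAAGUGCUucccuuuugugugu
miR-295-3p: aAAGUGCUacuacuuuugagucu
miR-290a-3p: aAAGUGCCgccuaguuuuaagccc
miR-291b-3p: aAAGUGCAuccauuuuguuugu
miR-302b-3p: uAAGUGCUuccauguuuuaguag
miR-302d-3p: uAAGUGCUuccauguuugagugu
miR-350-5p: aAAGUGCAugcgcuuuggg
The hairpin Mir290a (chr7:3218626-3218708, plus strand) is shown with miR-290a-5p in capitals, and Mir293 (chr7:3220343-3220422, plus strand) with miR-293-3p in capitals, because the detected strand lies on the 5′ side of one and on the 3′ side of the other.
Mir290a: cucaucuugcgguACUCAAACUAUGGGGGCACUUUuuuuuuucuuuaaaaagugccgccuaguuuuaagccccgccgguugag
Mir293: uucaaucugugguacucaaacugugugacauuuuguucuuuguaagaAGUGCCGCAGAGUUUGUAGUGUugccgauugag
Counted from the 5′ end, miR-292-5p and miR-293-5p are identical at 17 of 22 positions, and miR-290a-5p and miR-292-5p at 15 of 22. On the opposite strand, miR-290b-3p overlaps miR-290a-5p by 21 bases and miR-292b-3p overlaps miR-292-5p by 19 bases.

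Values are the authors' normalized log2 values. Array medians were 0.779 to 0.802 on aSHF miRNA arrays and 0.842 to 0.859 on OFT-RV miRNA arrays, so the tissues may have been normalized separately. Levels were therefore not compared between tissues, nor between different probe sets. Dgcr8 itself had log2 values of 10.22 ± 0.05 in aSHF mutant pools and 10.34 ± 0.06 in aSHF wild-type pools (SD, n = 4 each). In OFT-RV it fell, with 7.70 ± 0.07 in mutant pools and 8.11 ± 0.11 in wild-type pools (SD, n = 4 each; limma, adjusted p = 0.00753). In pooled tissue, fewer cells of a type and less RNA per cell cannot be told apart, and where the probes of Dgcr8 lie relative to the floxed part was not checked here.

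Of the 18 members, 4 were above background on every array of both tissues, miR-290a-5p, miR-292-5p, miR-292-3p and miR-293-3p. Background was the 95th percentile of the 95 background probe sets of the same array, which lay between 2.66 and 2.91 on aSHF arrays and between 0.979 and 1.08 on OFT-RV arrays. In aSHF these 4 were the members above it on every array in mutant and in wild-type pools alike. Of all 1908 mature miRNAs, 256 (13.4%) were above it on every aSHF mutant array and 266 (13.9%) on every aSHF wild-type array. In OFT-RV, 5 members were above it on every mutant array, with miR-291a-5p as the added one, and 5 on every wild-type array, with miR-291b-5p as the added one. Among all mature miRNAs in OFT-RV the counts were 313 (16.4%) for mutants and 372 (19.5%) for wild-type pools.

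The aSHF threshold was set by background probe sets outside the GC range of the members. The probe set of 25 G or C bases read 5.12 to 5.74 on aSHF arrays and 0.947 to 1.14 on OFT-RV arrays. Background probe sets with 7 to 13 G or C bases, the range of the members' own sequences, read at most 1.02 on aSHF arrays. Against background probe sets within 1 G or C base of the member, miR-291a-5p was also above background on every array of both tissues, and miR-291b-5p on every OFT-RV array and 7 of the aSHF arrays. miR-292-3p was not set against such probe sets. Against the highest background probe set of each array, the aSHF count was 2, miR-292-3p and miR-293-3p. The OFT-RV count was 3, miR-290a-5p, miR-292-3p and miR-293-3p. There miR-292-5p read 1.14 on mutant replicate 3, under the highest background probe set of that array, 1.40.

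**Figure D1:**
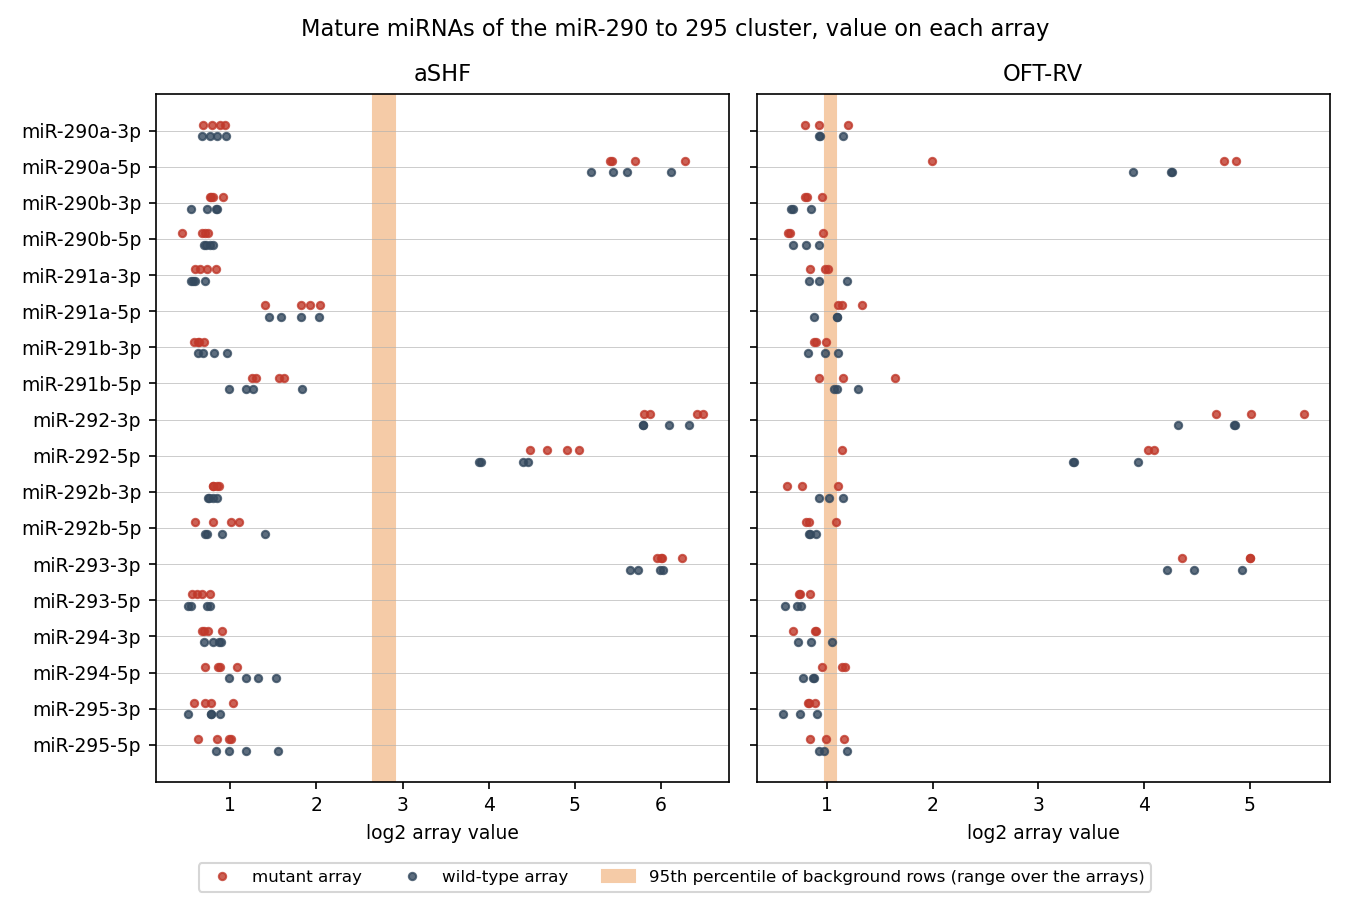
Log2 value of each of the 18 mature miRNAs on every miRNA array, aSHF on the left and OFT-RV on the right, with a point per array (mutant above wild-type within a row) and the range of the background threshold as a band. miR-290a-5p, miR-292-5p, miR-292-3p and miR-293-3p lie to the right of the band, with miR-292-5p at 1.14 on 1 OFT-RV mutant array, and the other 14 lie left of the band in aSHF and around it in OFT-RV.

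The 5 AAGUGC-type members with a printed sequence were near or below the background threshold, whereas miR-292-3p, known as a member of the same seed family, was above it on 14 of 14 arrays. miR-291a-3p, miR-294-3p and miR-295-3p, which carry the AAGUGCU seed, were above background on 0 of the 8 aSHF arrays. In OFT-RV, miR-291a-3p and miR-294-3p were above it on 0 mutant arrays and on 1 wild-type array each, and miR-295-3p on 0. Against GC-matched background, of probe sets within 1 G or C base, miR-294-3p was above it on 1 mutant and 3 wild-type aSHF arrays. miR-291a-3p was above that background on 1 mutant and 0 wild-type aSHF arrays. In OFT-RV both were above it on 2 arrays of each genotype. miR-295-3p was above it on 1 array of each genotype in each tissue. miR-294-3p ranged over 0.68 to 0.90 in aSHF mutant pools and 0.70 to 0.89 in aSHF wild-type pools, and over 0.68 to 0.90 in OFT-RV mutant pools and 0.73 to 1.05 in OFT-RV wild-type pools. miR-291a-3p ranged over 0.59 to 0.83 in aSHF mutant pools and 0.55 to 0.71 in aSHF wild-type pools, and over 0.84 to 1.01 in OFT-RV mutant pools and 0.83 to 1.19 in OFT-RV wild-type pools. miR-295-3p ranged over 0.58 to 1.03 in aSHF mutant pools and 0.50 to 0.88 in aSHF wild-type pools, and over 0.82 to 0.89 in OFT-RV mutant pools and 0.58 to 0.91 in OFT-RV wild-type pools. The groups of each of these members overlapped in both tissues. Of the close variants of the seed, miR-290a-3p ranged over 0.68 to 0.94 in aSHF mutant pools and 0.67 to 0.95 in aSHF wild-type pools, and over 0.80 to 1.20 in OFT-RV mutant pools and 0.93 to 1.16 in OFT-RV wild-type pools. miR-291b-3p ranged over 0.58 to 0.69 in aSHF mutant pools and 0.62 to 0.96 in aSHF wild-type pools, and over 0.88 to 1.0 in OFT-RV mutant pools and 0.82 to 1.10 in OFT-RV wild-type pools. Neither was above the threshold taken over all background probe sets on any aSHF array. Against GC-matched background, miR-290a-3p was above it on 1 aSHF array of each genotype, and miR-291b-3p on 0 mutant and 2 wild-type aSHF arrays. In OFT-RV miR-290a-3p was above the GC-matched background on 2 mutant and 3 wild-type arrays, and miR-291b-3p on 2 arrays of each genotype.

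Members with the CUCAAA-type seeds of the 5′ arms behaved unlike each other although their sequences are alike. miR-293-5p was above background on 0 of 14 arrays, whereas miR-290a-5p and miR-292-5p, with the same seed, were above it on 14 of 14. miR-293-5p ranged over 0.56 to 0.76 in aSHF mutant pools and 0.50 to 0.77 in aSHF wild-type pools, and over 0.74 to 0.84 in OFT-RV mutant pools and 0.61 to 0.76 in OFT-RV wild-type pools. miR-294-5p ranged over 0.71 to 1.08 in aSHF mutant pools and 0.99 to 1.53 in aSHF wild-type pools, and over 0.96 to 1.18 in OFT-RV mutant pools and 0.78 to 0.88 in OFT-RV wild-type pools. miR-295-5p ranged over 0.63 to 1.01 in aSHF mutant pools and 0.83 to 1.56 in aSHF wild-type pools, and over 0.84 to 1.17 in OFT-RV mutant pools and 0.92 to 1.19 in OFT-RV wild-type pools. miR-294-5p was above background on 0 aSHF arrays and 2 OFT-RV arrays, both of mutants. miR-295-5p was above it on 2 OFT-RV arrays, 1 of each genotype. Against GC-matched background, miR-295-5p was above it on 3 mutant and 4 wild-type aSHF arrays, and on 2 mutant and 3 wild-type OFT-RV arrays. By that measure miR-293-5p was above background on 1 mutant and 0 wild-type aSHF arrays, and on 0 OFT-RV arrays. The AUCAAAG pair, miR-291a-5p and miR-291b-5p, is identical at 20 of 22 positions. miR-291a-5p ranged over 1.41 to 2.04 in aSHF mutant pools and 1.45 to 2.03 in aSHF wild-type pools, and over 1.11 to 1.33 in OFT-RV mutant pools and 0.88 to 1.10 in OFT-RV wild-type pools. miR-291b-5p ranged over 1.25 to 1.63 in aSHF mutant pools and 0.98 to 1.83 in aSHF wild-type pools, and over 0.93 to 1.65 in OFT-RV mutant pools and 1.07 to 1.30 in OFT-RV wild-type pools. Neither reached the aSHF threshold.

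The minus-strand members were below or near the threshold taken over all background probe sets. miR-290b-5p ranged over 0.44 to 0.74 in aSHF mutant pools and 0.70 to 0.80 in aSHF wild-type pools, and over 0.64 to 0.96 in OFT-RV mutant pools and 0.68 to 0.92 in OFT-RV wild-type pools. miR-290b-3p ranged over 0.76 to 0.91 in aSHF mutant pools and 0.54 to 0.85 in aSHF wild-type pools, and over 0.79 to 0.96 in OFT-RV mutant pools and 0.67 to 0.85 in OFT-RV wild-type pools. Both were above that threshold on 0 of 14 arrays, although miR-290b-3p is antisense to the detected miR-290a-5p. miR-292b-5p ranged over 0.59 to 1.10 in aSHF mutant pools and 0.71 to 1.40 in aSHF wild-type pools, and over 0.81 to 1.09 in OFT-RV mutant pools and 0.84 to 0.90 in OFT-RV wild-type pools. miR-292b-3p ranged over 0.80 to 0.87 in aSHF mutant pools and 0.74 to 0.85 in aSHF wild-type pools, and over 0.62 to 1.11 in OFT-RV mutant pools and 0.92 to 1.16 in OFT-RV wild-type pools. These were above background on 1 and 2 OFT-RV arrays in all and on 0 aSHF arrays. Against GC-matched background, miR-292b-3p was above it on 4 of 4 aSHF mutant arrays and 2 of 4 aSHF wild-type arrays, and on 1 of 3 OFT-RV mutant arrays and 3 of 3 OFT-RV wild-type arrays. So measured, miR-290b-3p was above background on 3 mutant and 2 wild-type aSHF arrays, and on 1 mutant and 0 wild-type OFT-RV arrays. For miR-290b-5p these counts were 0 and 1 in aSHF and 1 and 1 in OFT-RV. For miR-292b-5p they were 3 and 2 in aSHF and 1 and 1 in OFT-RV.

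In aSHF all 4 detected members had a higher mean in mutants than in wild-type pools, and none passed the test. miR-290a-5p read 5.43, 5.41, 6.28 and 5.70 on the mutant arrays and 5.61, 5.45, 6.12 and 5.19 on the wild-type arrays. The groups overlapped throughout, and the change, mutant minus wild-type on the log2 scale, was 0.11 (SE 0.24, 95% interval -0.42 to 0.65, limma, adjusted p = 0.962). miR-292-3p read 5.81, 6.42, 6.49 and 5.87 on the mutant arrays and 5.79, 6.09, 6.33 and 5.80 on the wild-type arrays. Replicates 2 and 3 were the higher arrays in both genotypes, and the change was 0.14 (SE 0.19, 95% interval -0.28 to 0.57, limma, adjusted p = 0.962). miR-293-3p read 6.0, 6.02, 6.25 and 5.96 on the mutant arrays and 5.64, 5.99, 6.02 and 5.73 on the wild-type arrays. Mutant arrays were the higher ones on average but overlapped with the wild-type arrays, with a change of 0.21 (SE 0.11, 95% interval -0.05 to 0.47, limma, adjusted p = 0.869).

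miR-292-5p had the smallest p of the 18 members in aSHF. It read 4.48, 4.91, 5.05 and 4.68 on the mutant arrays and 3.91, 4.40, 3.89 and 4.46 on the wild-type arrays, so that every mutant array was above every wild-type array. The change was 0.62 (SE 0.17, 95% interval 0.23 to 1.01), a 1.53-fold difference, with an unadjusted p of 0.00595 by limma. Adjusted over all mature miRNAs it did not pass (limma, adjusted p = 0.474), and of all mature miRNAs 3.93% had groups that did not overlap in aSHF.

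**Figure D2:**
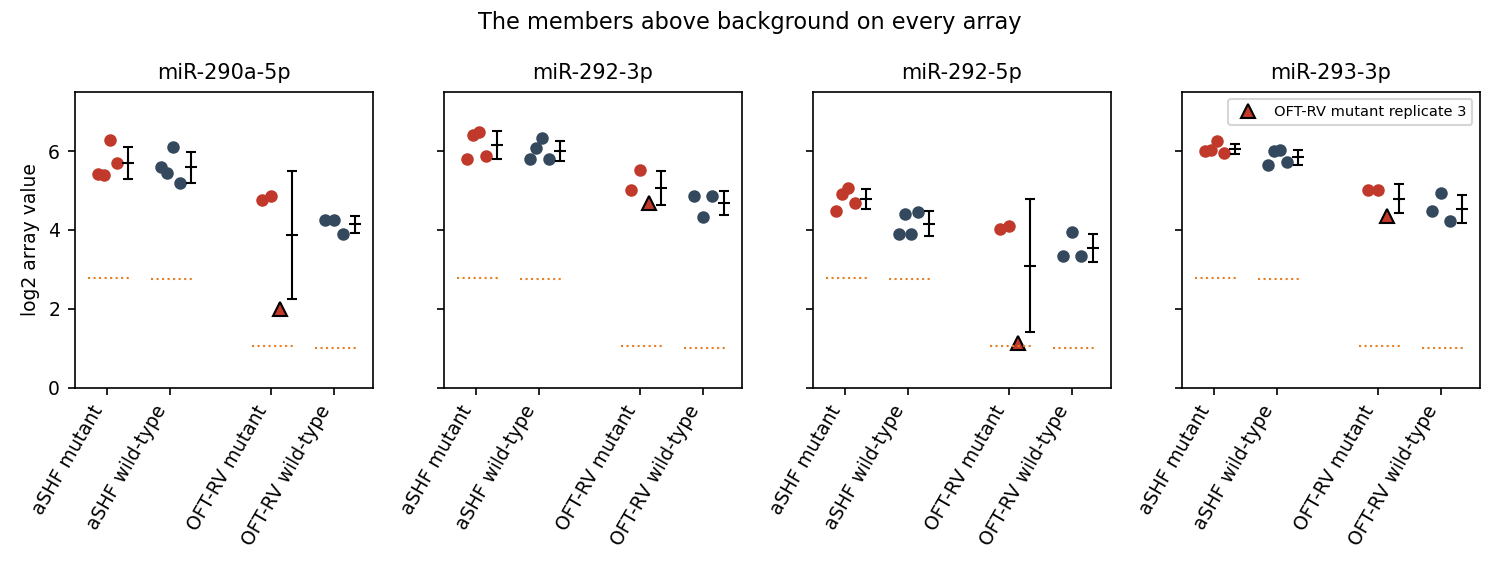
Log2 value of the 4 members above background on every array, 1 panel each, with a point per array, the group mean and SD beside the points, and the mean background threshold of the group as a dotted line. In aSHF the mutant and wild-type arrays overlap for all but miR-292-5p, and in OFT-RV the triangle, mutant replicate 3, lies far below its group for miR-290a-5p and miR-292-5p.

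In OFT-RV the outcome for the 5p members rested on 1 array. miR-290a-5p read 4.76, 4.87 and 1.99 on the mutant arrays and 4.26, 4.26 and 3.90 on the wild-type arrays. The first 2 mutant arrays were above all wild-type arrays and the third far below them, and the change was -0.26 (SE 0.72, 95% interval -1.96 to 1.43, limma, adjusted p = 0.944). miR-292-5p read 4.03, 4.09 and 1.14 on the mutant arrays and 3.33, 3.94 and 3.34 on the wild-type arrays. Its mutant arrays fell on the 2 sides of the wild-type arrays in the same way, with a change of -0.45 (SE 0.75, 95% interval -2.23 to 1.33, limma, adjusted p = 0.907).

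The 3p members showed less of this split. miR-292-3p read 5.01, 5.51 and 4.67 on the mutant arrays and 4.85, 4.32 and 4.86 on the wild-type arrays. The groups overlapped, with a change of 0.39 (SE 0.24, 95% interval -0.18 to 0.95, limma, adjusted p = 0.720). miR-293-3p read 5.0, 5.0 and 4.36 on the mutant arrays and 4.47, 4.93 and 4.22 on the wild-type arrays. The change was 0.25 (SE 0.24, 95% interval -0.31 to 0.81, limma, adjusted p = 0.837), and here too mutant replicate 3 was the lowest mutant array.

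Mutant replicate 3 of OFT-RV stood apart over more than the cluster. Of the 372 mature miRNAs above background on every OFT-RV wild-type array, 51 (13.7%) were over 1 log2 unit below the mean of the other mutant arrays there, against 4 (1.08%) and 6 (1.61%) on the other mutant arrays and 6 to 9 on the wild-type arrays. miR-292-5p deviated by -2.92 and miR-290a-5p by -2.83, the 2nd and 3rd lowest of the 372, while miR-293-3p deviated by -0.64 and miR-292-3p by -0.58. Without that array the change of miR-290a-5p was 0.68 (SE 0.14, 95% interval 0.33 to 1.02, unadjusted p = 0.00225), which did not pass (limma, adjusted p = 0.132). The changes of miR-292-3p, miR-292-5p and miR-293-3p were then 0.58, 0.52 and 0.46, with adjusted p of 0.478, 0.491 and 0.595 by limma. Of the 18 members, 0 were called and 3 had an unadjusted p under 0.05 without that array, beside 9 called (0.472%) and 164 (8.60%) of all 1908 mature miRNAs. What sets the array apart was not tested.

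**Figure D3:**
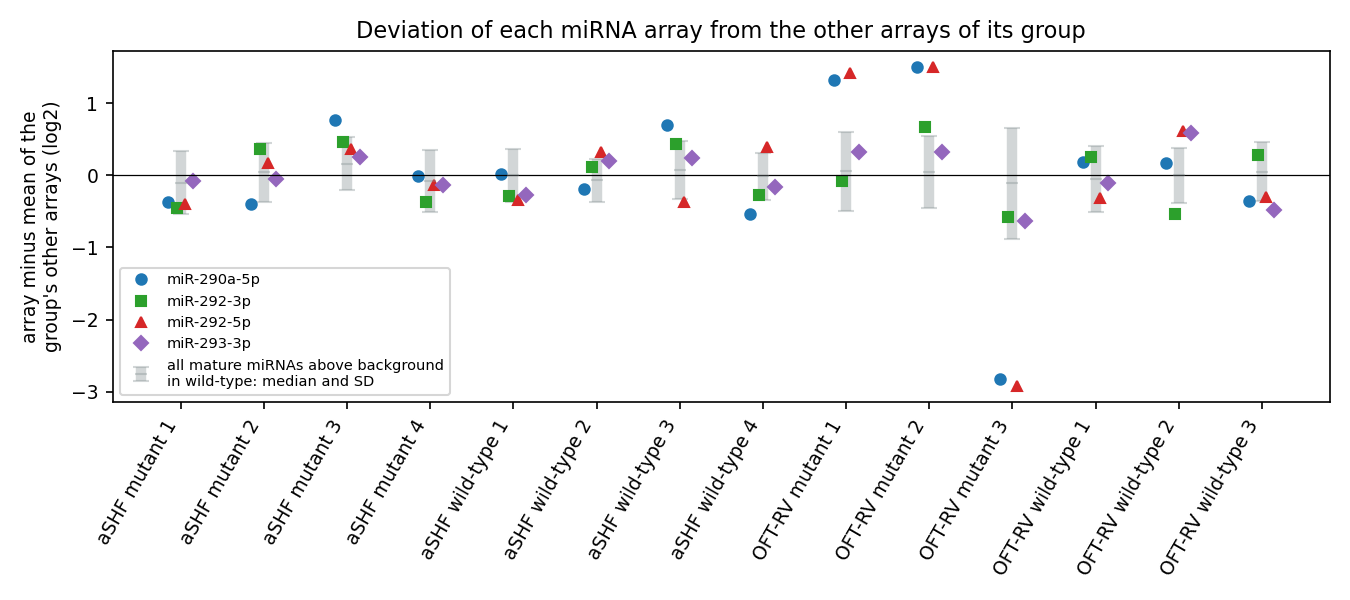
Difference of each miRNA array from the mean of the other arrays of its group (log2), for the 4 detected members as points and for all mature miRNAs above background in wild-type pools of the tissue as a grey bar of median and SD. miR-290a-5p and miR-292-5p lie at -2.83 and -2.92 on OFT-RV mutant replicate 3, where the SD of the other miRNAs (0.767) was also the widest of the 14 arrays.

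Over all 18 members, 0 passed in either tissue at an adjusted p under 0.05. In aSHF, 12 were higher and 6 lower in mutants, with a median change of 0.043 and a range of -0.37 to 0.62. Their background is 0% of mature miRNAs called in aSHF, 902 higher and 1006 lower, with a median of -0.0091. In OFT-RV, 9 members were higher and 9 lower, with a median change of 0.013 and a range of -0.45 to 0.39, beside a median of -0.0044 over all mature miRNAs. There, 7 of all mature miRNAs (0.367%) passed, and all 7 fell in mutants. At an unadjusted p under 0.05 there were 2 members in aSHF, miR-292-5p and miR-294-5p, beside 5.97% of all mature miRNAs, and 1 in OFT-RV, miR-294-5p, beside 9.54%. Groups that did not overlap were found for 1 member in aSHF and for 2 in OFT-RV, miR-291a-5p and miR-294-5p, beside 12.9% of all mature miRNAs in OFT-RV. In the authors' deposited table, the lowest adjusted p among the members was 0.540 in aSHF, for miR-292-5p, and 0.549 in OFT-RV, for miR-294-5p.

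**Figure D4:**
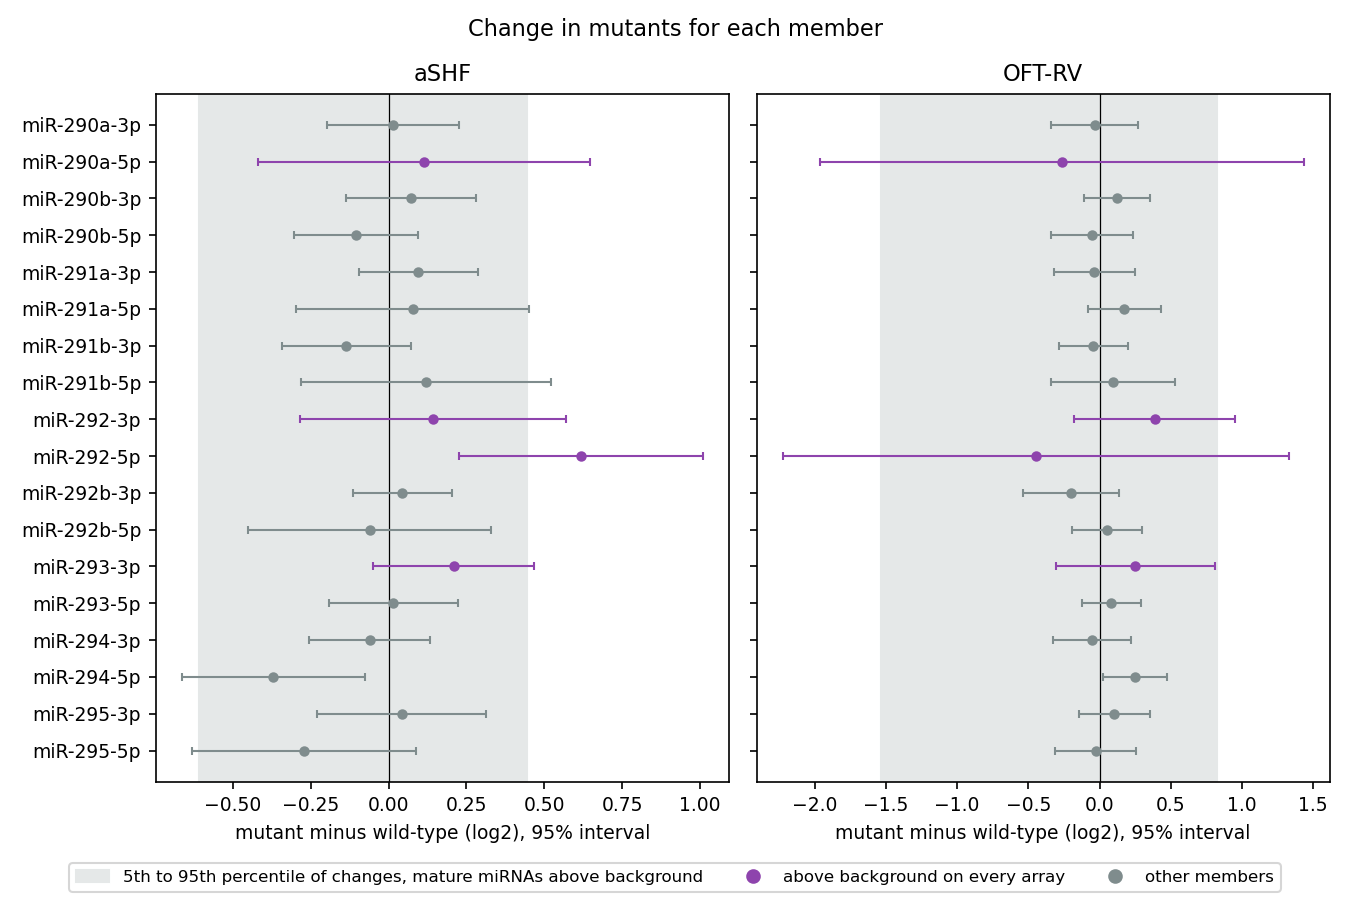
Change in mutants (mutant minus wild-type, log2) of each member with its 95% interval from limma, aSHF on the left and OFT-RV on the right, on different scales, over a grey band from the 5th to the 95th percentile of the changes of all mature miRNAs above background in that tissue. All intervals but those of miR-292-5p and miR-294-5p in aSHF and of miR-294-5p in OFT-RV span 0, and those of miR-290a-5p and miR-292-5p in OFT-RV are the widest.

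The 95% intervals set the falls in whole pools that the data allow. They set no limit on a fall within the cells that lost Dgcr8, as other cells in the pools keep the gene. For the detected members in aSHF the lower bounds were -0.42 for miR-290a-5p, -0.28 for miR-292-3p, -0.05 for miR-293-3p and 0.23 for miR-292-5p. In OFT-RV they were -1.96, -0.18, -0.31 and -2.23 in the same order. Without OFT-RV mutant replicate 3 the OFT-RV lower bounds were 0.33, 0.07, -0.01 and 0.06 in that order, and the SE of miR-290a-5p was 0.14 in place of 0.72, so most of the fall allowed in OFT-RV rested on that array. The number of arrays limits the precision too, and the SE depended on the model. With a replicate block the SE in aSHF was 0.13, 0.09, 0.09 and 0.16 in that order, each lower than in the main fit. In OFT-RV, with all arrays, it was 0.51, 0.27, 0.13 and 0.55, higher than in the main fit for miR-292-3p alone. With 1 fit of 4 groups the SE in aSHF was 0.49, 0.21, 0.17 and 0.49, each higher than in the main fit. There the aSHF change of miR-292-5p had an unadjusted p of 0.231 by limma. That fit gave 0.57, 0.25, 0.20 and 0.57 in OFT-RV, again higher than in the main fit for miR-292-3p alone. Over the 247 mature miRNAs above background on every aSHF array the median change was -0.045, with 5th and 95th percentiles of -0.61 and 0.45, and over the 274 in OFT-RV it was -0.073, with -1.54 and 0.83.

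miR-294-5p had changes of opposite sign in the tissues. In aSHF it read 0.86, 1.08, 0.89 and 0.71 on the mutant arrays and 0.99, 1.53, 1.32 and 1.18 on the wild-type arrays, all under the threshold taken over all background probe sets. Against GC-matched background probe sets it was above background on 3 of 4 mutant and 4 of 4 wild-type aSHF arrays, and on 3 of 3 mutant and 2 of 3 wild-type OFT-RV arrays. The aSHF change was -0.37 (SE 0.13, limma, adjusted p = 0.716). In OFT-RV it read 0.96, 1.14 and 1.18 on the mutant arrays and 0.87, 0.88 and 0.78 on the wild-type arrays, with every mutant array above every wild-type array. That change was 0.25 (SE 0.10, limma, adjusted p = 0.470). The difference of the changes, OFT-RV minus aSHF, was 0.62 (SE 0.18, 95% interval 0.24 to 1.0, unadjusted p = 0.00349) and did not pass (limma, adjusted p = 0.416).

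For the other members the difference of the changes between tissues was also not past the threshold. Of 18, 0 were called and 1 had an unadjusted p under 0.05, beside 3 called (0.157%) and 115 (6.03%) of all mature miRNAs. For miR-292-5p the difference was -1.07 (SE 0.75, 95% interval -2.69 to 0.55, limma, adjusted p = 0.922), and without OFT-RV mutant replicate 3 it was -0.09. For miR-290a-5p it was -0.38 (SE 0.75), and 0.56 without that array.

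Of the hairpin probe sets, which match the precursors before Dicer, 0 of 10 were above background on every array of either tissue, beside 8 (0.637%) in aSHF and 15 (1.20%) in OFT-RV of all 1255 hairpin probe sets. The hairpin of miR-290a read 2.43 ± 0.19 in aSHF mutant pools and 2.36 ± 0.11 in aSHF wild-type pools (SD, n = 4 each). On none of these arrays was it above the threshold taken over all background probe sets, and it was not set against GC-matched ones. Its lowest aSHF value was 2.14, beside at most 1.40 for the other 9 hairpin probe sets there, which does not rank the precursors. In OFT-RV it read 1.5 ± 0.31 in mutant pools, above background on 3 of 3 arrays, and 1.17 ± 0.30 in wild-type pools, above it on 2 of 3 (SD, n = 3 each). With precursors in the fit its change was 0.33 (SE 0.20, limma, adjusted p = 0.776). The other 9 hairpin probe sets read 0.504 to 1.40 in aSHF and 0.615 to 1.52 in OFT-RV. None of the 10 was called in either tissue, beside 0% in aSHF and 0.285% in OFT-RV of the 3163 mature and precursor probe sets in that fit. None had an unadjusted p under 0.05 (limma, lowest 0.0808 in aSHF and 0.116 in OFT-RV), beside 5.53% and 7.68% of those probe sets.

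Outside the cluster 3 mature miRNAs carry a seed of one of its members. miR-302d-3p, of the miR-302 cluster of early progenitors, was 5.36 ± 0.39 in aSHF mutant pools and 5.02 ± 0.68 in aSHF wild-type pools (SD, n = 4 each). In OFT-RV it was 4.49 ± 1.07 in mutant pools and 4.08 ± 0.65 in wild-type pools (SD, n = 3 each). Its changes were 0.34 (SE 0.32, limma, adjusted p = 0.936) and 0.42 (SE 0.55, limma, adjusted p = 0.888), with overlapping groups. miR-302b-3p, with the same AAGUGCU seed, was 0.47 ± 0.05 in aSHF mutant pools and 0.64 ± 0.31 in aSHF wild-type pools, and 0.90 ± 0.13 in OFT-RV mutant pools and 0.91 ± 0.09 in OFT-RV wild-type pools. miR-350-5p, which shares the AAGUGCA seed of miR-291b-3p, was 0.73 ± 0.13 in aSHF mutant pools and 0.65 ± 0.13 in aSHF wild-type pools, and 0.87 ± 0.23 in OFT-RV mutant pools and 1.03 ± 0.24 in OFT-RV wild-type pools. None of the 3 was called.

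The mature miRNAs whose deviation from the tissue mean over the 14 arrays was most like the mean of the 4 detected members were mainly of the miR-17 family and its clusters. Among 1890 compared, Pearson's r was 0.826 for miR-20b-5p, 0.796 for miR-20a-5p, 0.762 for miR-17-5p, 0.751 for miR-34b-5p and 0.748 for miR-19b-3p. Spearman's rho for the 5 ranged over 0.433 to 0.670. Without OFT-RV mutant replicate 3, over 13 arrays, r was 0.339, 0.167, 0.142, 0.292 and 0.139 in the same order, so the likeness rested on that array. All points share the arrays' normalization, and miR-34b-5p was not above background on every array.

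Of the listed genes, 20842 were used here, after genes sharing a probe set and repeated symbols were left out. By symbol or identifier 0 of the 20842 was a Mir290 to Mir295 gene, so the primary transcript was not analysed here. A gene of the cluster among those left out would not have been found by this search. The nearest listed gene before the locus, AU018091, had log2 values of 6.44 ± 0.17 in aSHF mutant pools and 6.37 ± 0.11 in aSHF wild-type pools (SD, n = 4 each). In OFT-RV it had 5.56 ± 0.49 in mutant pools and 5.26 ± 0.10 in wild-type pools (SD, n = 4 each). Its changes were 0.08 (SE 0.08, limma, adjusted p = 0.978) and 0.29 (SE 0.19, limma, adjusted p = 0.958). Myadm, the nearest listed gene after the locus, had a change of -0.06 (SE 0.06) in aSHF and of 0.03 (SE 0.06) in OFT-RV and did not pass in either.

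Of 12 textbook targets of the AAGUGC-type seed, 0 passed in aSHF and 0 in OFT-RV, where 0.178% and 0.446% of all genes were called. In aSHF 4 were higher and 8 lower in mutants (median -0.019, against 0.012 over all genes), and in OFT-RV 5 were higher and 7 lower (median -0.046, against -0.011). None had an unadjusted p under 0.05 by limma in either tissue, beside 2.66% of all genes in aSHF and 5.83% in OFT-RV. Rhoc, a small GTPase, had a change of -0.12 in aSHF (SE 0.06), and Cdkn1a, the cell cycle inhibitor p21, of -0.07 in aSHF (SE 0.09) and 0.07 in OFT-RV (SE 0.13). Lefty2, an inhibitor of Nodal signalling, had a change of 0.08 in aSHF (SE 0.07) and 0.05 in OFT-RV (SE 0.06). Among the smallest p in OFT-RV, Akt1, a survival kinase, had a change of -0.10 (SE 0.07), Tgfbr2, a TGF-beta receptor, of 0.06 (SE 0.05), Casp2, a caspase, of -0.08 (SE 0.07) and Lefty1, a further Nodal inhibitor, of -0.07 (SE 0.06). Of 9 genes of the miRNA machinery, 0 passed in aSHF, and Dgcr8 alone passed in OFT-RV, downward, as did 0.0144% of all genes. Drosha, the nuclease that DGCR8 guides, had a change of -0.08 in aSHF (SE 0.05) and 0.06 in OFT-RV (SE 0.06).

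Markers of cells that express the cluster elsewhere were mostly dim. Of 9 pluripotent and embryonic stem cell markers, 2 were above the array median on every aSHF array, Lin28a and Sox2, and 1 on every OFT-RV array, Lin28a. The mean log2 value of the 9 was 6.97 to 7.08 on aSHF mutant arrays and 6.92 to 7.09 on aSHF wild-type arrays, and 5.31 to 5.50 on OFT-RV mutant arrays and 5.33 to 5.51 on OFT-RV wild-type arrays. Nanog, a core pluripotency factor, had 6.42 ± 0.04 in aSHF mutant pools and 6.33 ± 0.14 in aSHF wild-type pools (SD, n = 4 each), under the array medians of 7.47 to 7.54. Dppa5a, an RNA-binding protein of pluripotent cells, had the smallest p of the list in OFT-RV, with a change of 0.31 (SE 0.07, limma, adjusted p = 0.149), and Dppa4 a change of -0.18 (SE 0.08, limma, adjusted p = 0.841). None of the 9 was called in either tissue. Of 9 primordial germ cell markers, 3 were above the median on every aSHF array, Kit, Nanos3 and Prdm1, and 2 on every OFT-RV array, Kit and Nanos3. Nanos3, a translational regulator of germ cells, rose in OFT-RV, with 7.15 ± 0.11 in mutant pools and 6.46 ± 0.08 in wild-type pools (SD, n = 4 each; limma, adjusted p = 0.000138). The other 8 were not called there, and Dppa3 had a change of -0.23 (SE 0.05, limma, adjusted p = 0.197). As to the labelled tissues, 8 of 8 second heart field progenitor markers were above the median on every aSHF array, Fgf8 with a change of 0.29 there (SE 0.08, limma, adjusted p = 0.978), and 8 of 8 cardiomyocyte markers were above it on every array of both tissues. Primitive erythroid markers were present too, 4 of 6 above the median on every aSHF array and 6 of 6 on every OFT-RV array. All 6 were higher in mutants in both tissues, with 0 called and medians of 0.14 and 0.07, and their part in the values of the cluster was not tested.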

How the data were processed

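Pools of dissected mouse embryo tissue were profiled on 14 miRNA and 16 mRNA arrays, 100 ng of total RNA entering the mRNA labelling, per the labels' protocols. The deposited array values are on the log2 scale and were made by the authors with oligo and RMA, per the submitters' processing notes, in versions not stated there. Array medians matched within a tissue and differed between tissues, so each tissue was analysed on its own. The miRNA arrays held 36353 probe sets and the mRNA arrays 35556. Names of miRNAs came from the authors' tables, which hold log2 changes, fold values as linear ratios, t and log-odds scores, p-values and adjusted p-values, as deposited by the authors per the file headers. Genes were named by matching mean and change of a listed gene to a probe set within 1e-06, which matched all 20889, and 20842 remained after genes sharing a probe set and repeated symbols were left out. A further 30 columns of values were not used, as their names match no sample label. No source used here states the build of the locations in those tables. Sequences and locations are RefSeq's (GRCm38.p6).

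Within each tissue, mutant and wild-type were compared by limma (version 3.58.1, R 4.3.3; functions lmFit and eBayes) in a model of genotype alone, adjusted by Benjamini and Hochberg over 1908 mature miRNAs or 20842 genes, and called at an adjusted p under 0.05. The difference of changes came from a fit of 4 groups. The fits were tested on simulated data. SE is limma's moderated standard error and SD the spread between pools. Whether pools share litters is not stated, so p-values measure only the spread between these pools. Tables were joined with Python 3.11.15. The main fit did not pair arrays by replicate number, and a replicate block was run as an alternative. Same-numbered miRNA arrays' deviations correlated weakly, at 0.093 to 0.271 in aSHF and at -0.165 to 0.360 in OFT-RV. On mRNA arrays the correlations ranged more widely in aSHF, from -0.091 to 0.672, and from 0.019 to 0.239 in OFT-RV.

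The members, gene lists and tests were chosen with earlier results of these data known. Named are all members, Dgcr8, miRNAs with a member's seed, the 5 mature miRNAs most alike, the nearest listed gene on each side, and, from gene lists, genes among the 4 of the smallest p per tissue. Alternatives were leaving out each array, a replicate block, quantile normalization, a filter on dim rows, trended and robust variance, precursors in the fit, 1 fit of all groups, array weights and other background thresholds.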

Additional observations from a re-analysis of the deposited data

How the results depend on the processing

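The count of members called was 0 in aSHF, in OFT-RV and for the difference between tissues under every alternative run. With a replicate block it was 0 in all 3, with 2, 0 and 1 members at an unadjusted p under 0.05, and no call among the members, the seed targets or the machinery genes was changed by the block. On aSHF miRNA arrays 2 of 4 arrays correlated best with their own number, and on OFT-RV 1 of 3. The adjusted p of miR-292-5p in aSHF ranged over 0.0998 (quantile normalization over all arrays) to 0.932 (1 fit of 4 groups). The count of members detected was 2 in aSHF and 3 in OFT-RV against the highest background probe set, and the OFT-RV count was 4 to 5 on leaving out 1 array. Against GC-matched probe sets the aSHF count was again 4, of 17 members tested. miR-290a-5p, miR-292-5p and miR-293-3p stayed, miR-291a-5p entered and miR-292-3p was not tested. Within a genotype that count was 6 on mutant and 6 on wild-type arrays in aSHF, and 6 and 8 in OFT-RV. The change of miR-290a-5p in OFT-RV turned to 0.20 with quantile normalization, and the cause was not tested. Under it miR-292-3p changed by 0.33 in aSHF and 0.59 in OFT-RV, miR-293-3p by 0.37 and 0.52, and 3 members in each tissue had an unadjusted p under 0.05.

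On leaving out 1 array, changes that turned in sign were those of miR-290a-5p in aSHF (-0.078 to 0.29), in OFT-RV (-0.76 to 0.68) and for the difference (-0.88 to 0.56), miR-292-5p in OFT-RV (-0.95 to 0.52), miR-293-3p for the difference (-0.12 to 0.25), Myadm in OFT-RV (-0.011 to 0.079) and AU018091 for the difference (-0.028 to 0.32). For miR-292-5p and miR-290a-5p in OFT-RV the array was mutant replicate 3. The alternatives for Mir290 to Mir295 genes gave no value, as no such gene was analysed here. For members under both background thresholds, the changes set no limit on the miRNA itself.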
